A study of Homo sapiens with 18 samples.

Results

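The loci described here carry H3K4me1, a modification of histone H3 known mostly from enhancers, at the promoters of protein-coding genes, and they carry no H3K4me3. They were measured by Cut&Tag, in which an antibody brings a transposase to the modified nucleosomes so that it cuts and tags the DNA there, in MOLM-13, an acute myeloid leukemia line with a KMT2A::MLLT3 fusion. Overlapping H3K4me1 intervals of the deposited count tables were merged into 34932 loci. A locus was taken if it reached the window of 2 kb on either side of a transcription start site (TSS) of a protein-coding transcript in GENCODE release 44 and overlapped no interval of the H3K4me3 tables. This gave 2306 loci, 6.6% of all, each represented by its widest interval. Of the 8760 H3K4me1 loci at coding promoters, the other 6454 overlapped an H3K4me3 interval.

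All libraries came from MOLM-13 cells treated for 72 h, according to the labels, either with 100 nM PR-957 (ONX-0914), an inhibitor of the immunoproteasome, or with its diluent DMSO. One legend of the study gives 48 h for the Cut&Tag heatmaps. Each treatment has 2 libraries for each of H3K4me1, H3K4me3, H3K27ac and H3K27me3, 16 libraries in all. The labels do not say that replicates were separate cultures, so the p-values below measure the spread between these libraries, which may be technical.

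H3K4me1 and H3K4me3 are placed by enzymes of the KMT2 family, of which KMT2A and KMT2B act mainly at promoters and KMT2C and KMT2D mainly at enhancers. H3K4me3 marks the start sites of active genes and of most CpG islands, where proteins with CXXC domains bind unmethylated CpG. H3K4me1 without H3K4me3 is the usual state of enhancers, and it is also known at promoters that are silent, poised or used in another cell type. H3K27ac adds activity to either state, whereas H3K27me3 is deposited by Polycomb repressive complexes.

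Most promoters of these loci held few CpG dinucleotides. The sequences below are shown for 2 of the 10 loci called higher after PR-957 with the smallest p-values and 3 of the 10 called lower, each with a TSS inside its interval. Not all such loci are shown. The sequences are the 200 bases before the nearest coding TSS in hg38, 5′ to 3′, with CpG in capitals (1-based positions). For CAPN2, a calpain protease subunit, and PKIB, an inhibitor of protein kinase A, the promoter of the same gene that does carry H3K4me3 is set beside it.
CAPN2, promoter without H3K4me3, chr1:223701445-223701644, plus strand: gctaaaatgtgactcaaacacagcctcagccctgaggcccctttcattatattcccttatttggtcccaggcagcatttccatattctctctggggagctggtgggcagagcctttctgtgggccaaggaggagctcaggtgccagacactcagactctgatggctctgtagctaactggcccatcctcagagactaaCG
CAPN2, promoter with H3K4me3, chr1:223712339-223712538, plus strand: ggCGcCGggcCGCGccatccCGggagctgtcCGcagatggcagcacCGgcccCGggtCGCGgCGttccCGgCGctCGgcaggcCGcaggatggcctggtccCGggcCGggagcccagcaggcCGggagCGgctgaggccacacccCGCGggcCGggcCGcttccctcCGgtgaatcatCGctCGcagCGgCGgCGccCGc
PKIB, promoter without H3K4me3, chr6:122717361-122717560, plus strand: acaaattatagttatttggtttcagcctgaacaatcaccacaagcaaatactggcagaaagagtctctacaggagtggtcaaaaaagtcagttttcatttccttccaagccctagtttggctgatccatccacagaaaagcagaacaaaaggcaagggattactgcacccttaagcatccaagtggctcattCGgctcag
PKIB, promoter with H3K4me3, chr6:122610205-122610404, plus strand: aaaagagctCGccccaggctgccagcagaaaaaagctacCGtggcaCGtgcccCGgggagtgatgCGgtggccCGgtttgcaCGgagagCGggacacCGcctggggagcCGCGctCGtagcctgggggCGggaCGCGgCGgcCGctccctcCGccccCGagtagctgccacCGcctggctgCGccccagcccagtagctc

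For the loci called lower the genes are GABRD, a subunit of the GABA-A receptor, TJP3, a tight junction protein, and ACY3, an aminoacylase. The ACY3 locus reached a canonical TSS. The GABRD and TJP3 loci did not, so the starts printed for them are other annotated ones, and both widest intervals lie wholly within annotated genes. Introns made up 48.9% of the GABRD interval and 97.3% of the TJP3 interval.
GABRD, promoter without H3K4me3, chr1:2025146-2025345, plus strand: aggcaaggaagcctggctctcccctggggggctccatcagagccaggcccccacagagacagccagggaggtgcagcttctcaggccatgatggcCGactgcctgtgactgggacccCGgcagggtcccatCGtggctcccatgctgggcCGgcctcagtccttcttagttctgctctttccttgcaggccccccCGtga
TJP3, promoter without H3K4me3, chr19:3721537-3721736, plus strand: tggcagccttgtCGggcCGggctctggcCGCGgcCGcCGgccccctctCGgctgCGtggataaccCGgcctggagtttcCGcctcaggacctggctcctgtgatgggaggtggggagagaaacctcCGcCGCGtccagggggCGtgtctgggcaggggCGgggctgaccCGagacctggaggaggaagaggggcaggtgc
ACY3, promoter without H3K4me3, chr11:67647584-67647783, minus strand: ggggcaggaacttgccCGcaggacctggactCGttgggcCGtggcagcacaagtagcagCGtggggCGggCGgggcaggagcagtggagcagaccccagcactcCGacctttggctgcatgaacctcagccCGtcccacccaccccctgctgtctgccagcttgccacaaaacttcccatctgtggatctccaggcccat

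Within these 200 bases the CAPN2 promoter without H3K4me3 held 1 CpG, against 30 at the CAPN2 promoter with H3K4me3. The PKIB pair held 1 and 21. GABRD held 5, ACY3 held 8 and TJP3 held 16. Over all loci, each nearest TSS was described by 300 bases, 250 before and 50 after it. The median promoter held 5 CpG with a GC content of 52% and a ratio of observed to expected CpG of 0.283. At the promoters that carry both H3K4me1 and H3K4me3 the medians were 25 CpG, 66% GC and 0.792. A ratio above 0.6, a usual limit for CpG islands, was reached by 14.6% of the nearest TSS of the loci without H3K4me3, by 80.2% of all coding TSS with H3K4me3, and by 57.3% of all 78465 coding TSS. The rule did not use sequence, but it left out loci with H3K4me3, and coding TSS with H3K4me3 were rich in CpG. No share was computed for coding TSS without H3K4me3 alone. The part of this exclusion in the low CpG content was not tested.

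**Figure D1:**
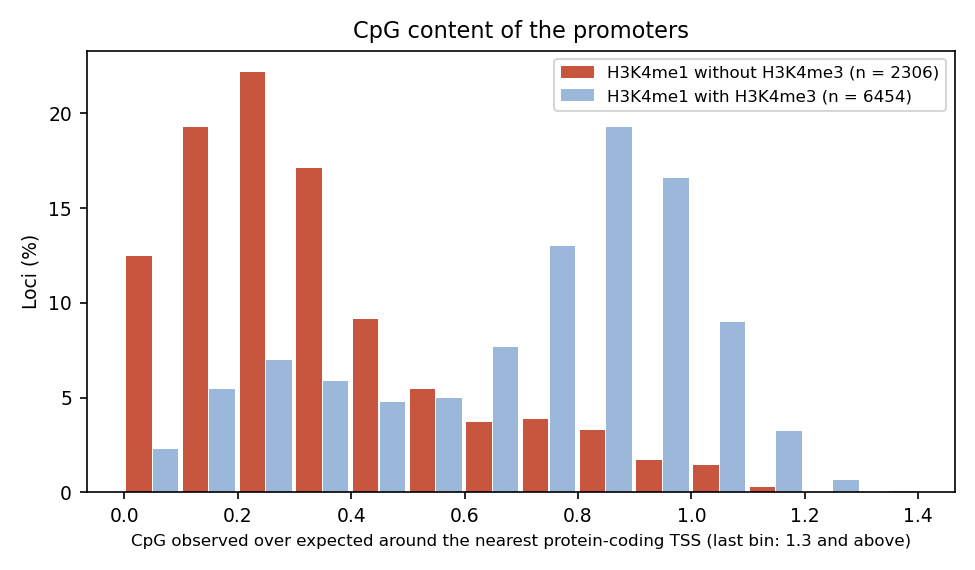
Share of loci (%) by the ratio of observed to expected CpG in 300 bases around the nearest protein-coding TSS, for the 2306 promoter loci with H3K4me1 and no H3K4me3 (red) and the 6454 promoter loci with both (blue). The red bars are highest between 0.2 and 0.3, with 22.2% of loci, and the blue bars between 0.8 and 0.9, with 19.3%.

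Short sequence motifs differed along with this base composition, whose part in these shares was not tested. The GC box GGGCGG, searched like all motifs on both strands, was found in 24.7% of the promoters of the loci, against 51.7% of all coding TSS. The NRF1 core motif was found in 0.979% against 6.78%. Higher shares were found for the TATA box TATAAA (14.2% against 9.5%), for the AP-1 motif TGANTCA (11.3% against 5.98%), for the RUNX motif TGTGGTNN (19.1% against 11.9%), for the CEBP motif TTGCNNAA (13.4% against 8.91%) and for the GATA motif AGATAA (13% against 8.13%). The CCAAT box, with 31.1% against 33.4%, and the antioxidant response element core TGACNNNGC, with 12.8% against 13.4%, were close to the share of all TSS. The CRE motif TGACGTCA was found in 0.667% against 2.08%. Of the 78465 coding TSS, 46128 carried H3K4me3, and these had the GC box at 68.1%, the TATA box at 5.14% and the GATA motif at 4.92%. No shares were computed for coding TSS without H3K4me3 alone. Whether the loci differ in motifs from other coding TSS without H3K4me3 was therefore not tested. A match shows only that these letters stand in the window.

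By the state of the gene the loci fall into 3 groups. At 1221 of them, H3K4me3 was present at another coding TSS of the gene. A canonical TSS was in reach at 6.88% of these loci, so that most lay near other annotated transcript starts. Their widest intervals had a median of 94.0% of bases in introns. Starts of all protein-coding transcripts were used, and whether these annotated starts are in use in the cells was not tested. At 809 loci no coding TSS of the gene carried H3K4me3, and here 74.5% had a canonical TSS in reach. At the remaining 276 an H3K4me3 interval lay in the same TSS window without touching the locus, at a median gap of 609 bases. The nearest TSS of the 3 groups, in this order, had median ratios of observed to expected CpG of 0.255, 0.289 and 0.578. A ratio above 0.6 was reached by 5.15%, 17.1% and 48% of them. The loci reached 2002 genes, and 2234 of the 2306 reached a TSS of 1 gene.

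The loci had a median width of 3332 bases, from 765 to 39143, against 4727 for promoter loci with H3K4me3. A wider locus overlaps another interval more easily, so the rule itself favours narrower loci. Its part in this difference was not tested. A TSS lay inside 1333 of the loci without H3K4me3. For the other 973 the centre lay before the TSS at 485 and after it at 488, so that neither side was favoured, and the median distance to the TSS was 1197 bases. The widest interval was mostly intronic, with a median of 88.5% of its bases in introns and 5.58% in exons of protein-coding genes. The H3K4me1 level in DMSO was 1.16 CPM (counts scaled to library size by TMM, per 1e6) per kb in the median, against 1.17 at promoters with H3K4me3 and 1.11 at distal loci without it.

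At the limits of the rule, values were as follows on either side. The 22 loci within 100 bases of an H3K4me3 interval had a median of 1.13 CPM per kb in DMSO and a median log2 fold change of 0.0037. The 22 promoter loci that overlap H3K4me3 by at most 100 bases, and so were left out, had 1.11 CPM per kb and 0.021. At the edge of the TSS window, 63 loci lay over 1900 and up to 2000 bases from the nearest TSS, with a median log2 fold change of 0.15, and 54 loci up to 100 bases beyond it had 0.08.

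H3K27ac and H3K27me3 were not used to choose the loci. An H3K27ac interval overlapped 726 of the 2306 (31.5%), against 87.8% of promoter loci with H3K4me3 and 23.9% of distal loci without H3K4me3. An H3K27me3 interval overlapped 244 (10.6%), against 14.7% and 2.34%. The 3 groups differed most in H3K27me3, which overlapped 173 of the 809 loci (21.4%) at genes with no H3K4me3 and 55 of the 1221 (4.50%) at genes with H3K4me3 elsewhere. In the group with H3K4me3 in the same window it overlapped 16 of 276 (5.80%). The H3K27ac shares of the 3 groups, in this order, were 31.1%, 33.7% and 22.5%. Both modifications met at 58 loci and neither at 1394.

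**Figure D2:**
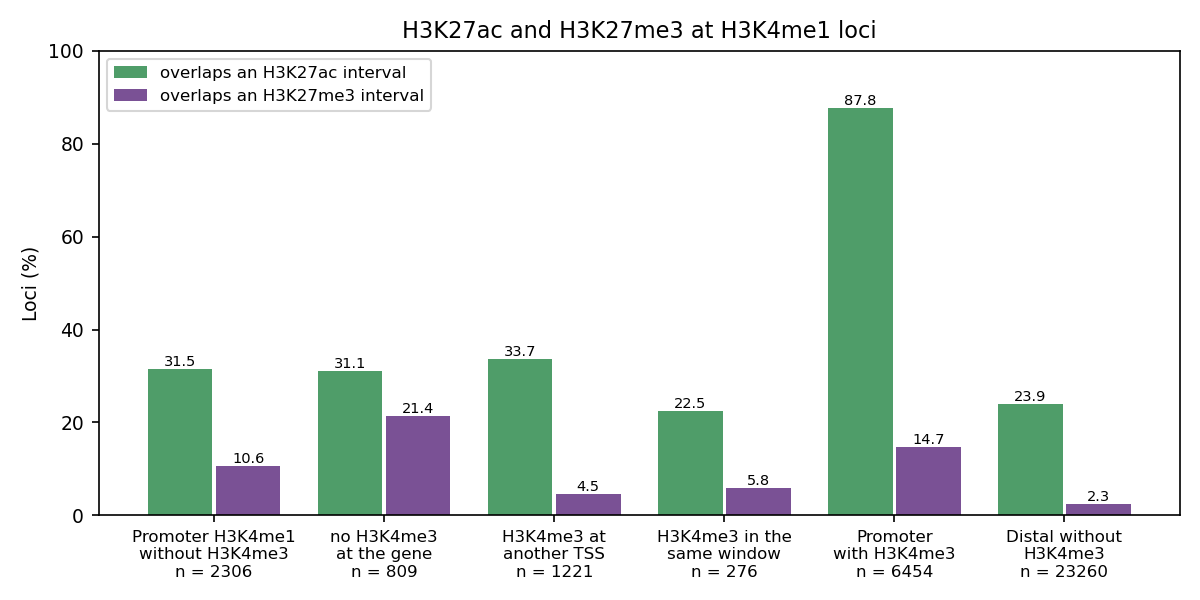
Share of H3K4me1 loci (%) that overlap at least 1 H3K27ac interval (green) or H3K27me3 interval (purple), for all promoter loci without H3K4me3, their 3 groups, promoter loci with H3K4me3 and distal loci without H3K4me3. Acetylation was at 31.5% of the promoter loci without H3K4me3 and 87.8% of those with it, and trimethylation reached 21.4% where the gene has no H3K4me3 at any coding TSS.

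The acetylated loci were wider and stronger. Their median width was 4688 bases and their median H3K4me1 level in DMSO 1.65 CPM per kb, against 3006 bases and 1.04 CPM per kb at the 1580 loci without H3K27ac. Acetylation was scored by overlap, which wider loci meet more easily, and the part of width was not tested. The loci with H3K27me3 lay at promoters richer in CpG, with a median ratio of 0.535 against 0.267 at the loci without it, and their level was 0.959 CPM per kb against 1.19.

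The strongest loci were those at GPIHBP1, VIPR1, SEPTIN9, CCL1 and ALOX5AP, the 5 with the highest DMSO level per kb. GPIHBP1, which anchors lipoprotein lipase on capillary endothelium, had 41.9 and 42.1 CPM in DMSO and 35.8 and 42.8 in PR-957 over an interval before its TSS (chr8:143206134-143211263), or 8.20 CPM per kb in DMSO. SEPTIN9, a cytoskeletal GTP-binding protein, had 90.5 and 73.2 CPM in DMSO and 64.4 and 76.8 in PR-957 (chr17:77417485-77431784), or 5.73 per kb. The ALOX5AP locus, at the gene for the activating protein of leukotriene synthesis, had 80.96 and 68.99 CPM in DMSO and 77.0 and 70.3 in PR-957 (chr13:30710195-30723472), or 5.65 per kb. The libraries of the 2 treatments overlapped at each of these loci.

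VIPR1, a neuropeptide receptor, had 34.8 and 31.8 CPM in DMSO and 32.7 and 32.1 in PR-957 (chr3:42489010-42494415), or 6.16 per kb. At CCL1, a chemokine gene without H3K4me3 and without H3K27ac at this locus, both PR-957 libraries, at 52.3 and 55.5 CPM, lay below the DMSO libraries at 70.4 and 58.4 (chr17:34361339-34372648). The CCL1 difference did not pass in edgeR (log2 fold change -0.26 ± 0.12 SE, adjusted p = 0.245), nor did that of any of the other 4, whose adjusted p was 0.373 or above.

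The comparison of PR-957 with DMSO asks whether immunoproteasome inhibition altered H3K4me1 at these promoters. By edgeR's quasi-likelihood test at a false discovery rate of 0.05, H3K4me1 was higher at 41 of the 2306 loci and lower at 11, and the median log2 fold change was 0.06 with an interquartile range of -0.14 to 0.32. These shares, 1.78% and 0.477%, were near the background. Over the widest intervals of all 34926 loci tested, 1.59% were called higher and 0.63% lower, and over all 108158 intervals 1.24% and 0.701%. The median over all loci was 0.05. Most loci changed little, with 87.7% within 1.5-fold of DMSO. DESeq2 called 0 of the 2306 loci, 538 of which it gave an adjusted p, and 0 also without its independent filtering, an alternative chosen after seeing the data. There, 160 of the loci had an unadjusted p under 0.05, against 405 in edgeR, and the 10 loci called higher and 10 called lower with the smallest p-values in edgeR had adjusted p-values of 0.103 to 0.493. In a bulk assay, fewer cells with the modification and less of it per cell cannot be told apart.

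Both PR-957 libraries lay above both DMSO libraries at 680 loci (29.5%) and below them at 415 (18.0%), against 27.7% and 19.2% of all loci. The loci took 5.71% and 5.80% of the H3K4me1 counts over all loci in DMSO and 5.89% in each PR-957 library, so that both PR-957 libraries lay above both DMSO libraries. The difference of 0.131 percentage points had a two-sided exact permutation p of 0.333, the smallest that 2 libraries against 2 allow. Leaving out 1 library lowered the calls, to 7 higher and 1 lower without DMSO replicate 1, 11 and 3 without DMSO replicate 2, and 7 and 1 without PR-957 replicate 1. Without PR-957 replicate 2 the counts were 36 and 10, of which 20 and 3 were among the 41 and 11.

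Promoter loci with H3K4me3 had a lower median log2 fold change, -0.09, with 15 of 6454 called higher and 98 lower. Distal loci without H3K4me3 had a median of 0.13, with 487 of 23254 higher and 85 lower. Among the promoter loci without H3K4me3 the median was -0.0044 where the gene had no H3K4me3 (15 of 809 higher, 8 lower), 0.09 where it had H3K4me3 at another TSS (23 of 1221 higher, 3 lower) and 0.12 where H3K4me3 lay in the same window (3 of 276 higher, 0 lower in edgeR, with 13 lower at an unadjusted p under 0.05). With the trend on GC content removed, the medians were -0.03 at promoter loci with H3K4me3, 0.06 at those without and 0.07 at distal loci. No test over libraries was made of these differences.

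**Figure D3:**
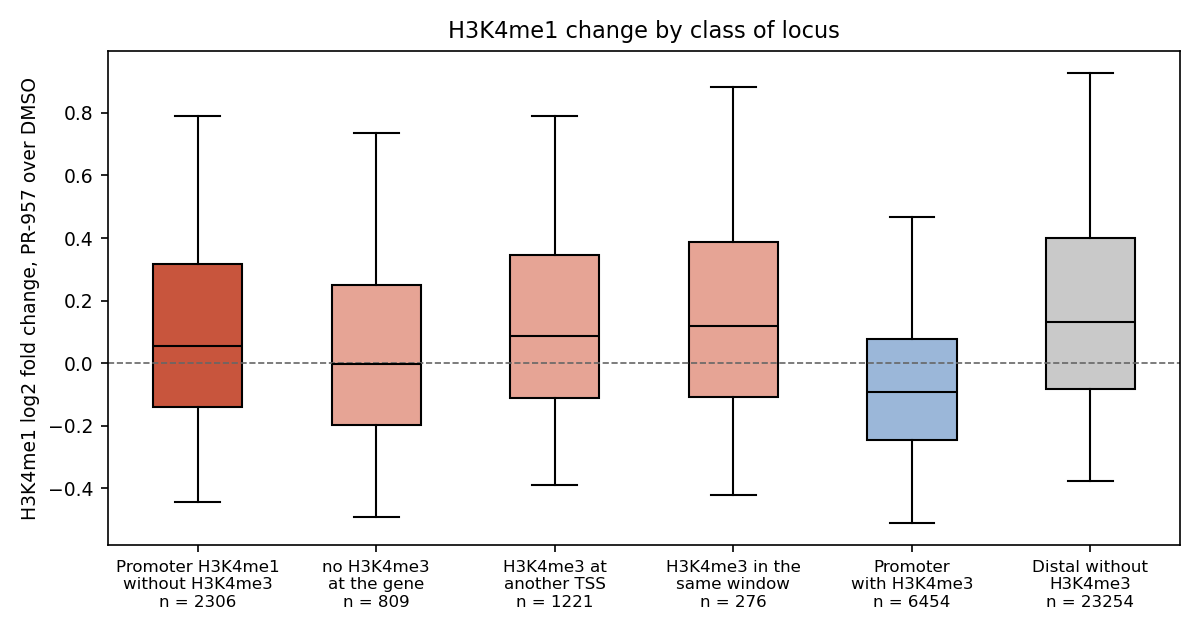
H3K4me1 log2 fold change, PR-957 over DMSO, by class of locus. Lines are medians, boxes the quartiles and whiskers the 5th and 95th percentiles over loci, with the number tested under each box. The median was 0.06 for the 2306 promoter loci without H3K4me3, -0.09 for promoter loci with H3K4me3 and 0.13 for distal loci without it.

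GC content and signal level moved with the change. The 577 loci in the lowest quartile of GC content (31.4% to 42.9%) had a median log2 fold change of 0.27 with 25 called higher and 0 lower in edgeR. The 577 in the highest quartile (53.5% to 74.6%) had -0.06, with 5 higher and 7 lower. With the trend on GC content removed, these medians were 0.08 and 0.07, and the balance of calls turned in both quartiles, to 2 higher and 5 lower in the lowest and 7 higher and 2 lower in the highest. Over all 2306 loci 19 were then called higher and 8 lower, of which 16 and 3 were among the 41 and 11. The calls also fell over all 34926 H3K4me1 loci tested, from 557 higher and 220 lower to 251 and 92. The 577 loci with the lowest mean level (up to 2.02 CPM) had a median of 0.29 and the 577 with the highest -0.04, and this difference remained after the GC trend was removed (0.28 and -7.04e-05). The part of GC content and level in the calls was not tested further.

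**Figure D4:**
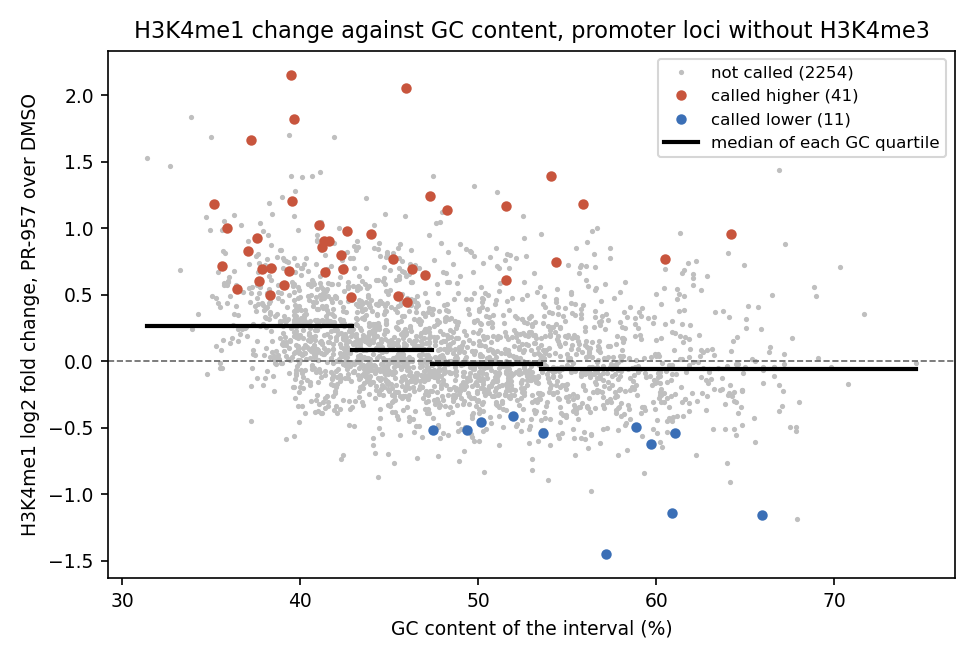
H3K4me1 log2 fold change, PR-957 over DMSO, of the 2306 promoter loci without H3K4me3 against the GC content (%) of the widest interval. Red points were called higher, blue points lower and grey points neither, and black bars are the medians of the GC quartiles, which go from 0.27 in the lowest to -0.06 in the highest.

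Among the loci called higher, 23 of 41 lay at genes with H3K4me3 at another TSS, near the 1221 of all 2306 loci. At the CAPN2 locus printed above (chr1:223700061-223703936, spanning an upstream start of the gene) H3K4me1 was at 3.52 and 2.76 CPM in DMSO and 6.55 and 7.31 in PR-957. Both PR-957 libraries were above both DMSO libraries (log2 fold change 1.14 ± 0.20 SE, edgeR adjusted p = 5.89e-05). The locus was also acetylated. It stayed called when any library was left out and under the other edgeR settings, with an adjusted p up to 0.0252, but not in DESeq2 without independent filtering (adjusted p = 0.103).

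The PKIB locus (chr6:122709189-122718208, around an internal start) had 14.4 and 12.8 CPM in DMSO and 22.01 and 18.1 in PR-957, without overlap (log2 fold change 0.54 ± 0.12 SE, edgeR adjusted p = 0.00379). With the GC trend removed it was no longer called (log2 fold change 0.16, adjusted p = 0.628 in edgeR). XPO6, the nuclear export receptor of actin, had 6.47 and 5.73 CPM in DMSO and 11.4 and 8.65 in PR-957 (chr16:28160648-28167091, log2 fold change 0.70, edgeR adjusted p = 0.00468), and 0.53 with the GC trend removed (edgeR adjusted p = 0.0574). KAT7, a histone acetyltransferase, had 2.85 and 3.76 CPM in DMSO and 6.10 and 5.87 in PR-957 over an interval annotated as exonic throughout (chr17:49821214-49824015, log2 fold change 0.86, edgeR adjusted p = 0.00849). The treatments did not overlap at either locus.

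SH3TC1 had 2.202 and 3.01 CPM in DMSO and 4.62 and 5.39 in PR-957 (chr4:8226665-8229335, log2 fold change 0.96, edgeR adjusted p = 0.00847), in an interval with a GC content of 64.2%. GSTM4, a glutathione S-transferase, had 1.22 and 2.51 CPM in DMSO and 3.59 and 4.57 in PR-957 (chr1:109658252-109660773, log2 fold change 1.17, edgeR adjusted p = 0.00556). Without DMSO replicate 1 its log2 fold change was 0.72 (edgeR adjusted p = 0.342), and without DMSO replicate 2 it was 1.75. Its locus starts 1917 bases after the nearest coding TSS, 95.6% of its bases are annotated as exonic, and the GSTM genes are near-identical copies in a row, so that reads may be shared among them.

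Of the loci at genes without any H3K4me3, HGD, an enzyme of tyrosine breakdown, had 2.3 and 3.05 CPM in DMSO and 5.90 and 4.96 in PR-957 (chr3:120677954-120683105, log2 fold change 1.03, edgeR adjusted p = 0.00331). ANKRD22 had 5.59 and 4.31 CPM in DMSO and 8.34 and 7.91 in PR-957 (chr10:88849282-88855112, log2 fold change 0.70, edgeR adjusted p = 0.0114), and was no longer called with the GC trend removed (log2 fold change 0.43, adjusted p = 0.234). Both loci span the canonical start and held no acetylation, and the treatments did not overlap.

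The last 2 of the 10 loci with the smallest p-values lie on chromosome 8. NCOA2, a coactivator of nuclear receptors, had 7.35 and 8.07 CPM in DMSO and 14.6 and 10.7 in PR-957 at an internal start (chr8:70244486-70249459, log2 fold change 0.70, edgeR adjusted p = 0.00116), and was no longer called with the GC trend removed (log2 fold change 0.27, adjusted p = 0.409). DCSTAMP, which drives the fusion of osteoclast precursors, had 6.23 and 5.94 CPM in DMSO and 9.43 and 10.3 in PR-957 (chr8:104336120-104341830, log2 fold change 0.70, edgeR adjusted p = 0.00468). In all, 4 of the 112 loci on chromosome 8 were called higher, with a median log2 fold change of 0.19 against 0.05 for the 2194 loci elsewhere, and over all H3K4me1 loci of this chromosome 4.84% were called higher. Whether this rests on the chromosome as a whole was not tested.

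**Figure D5:**
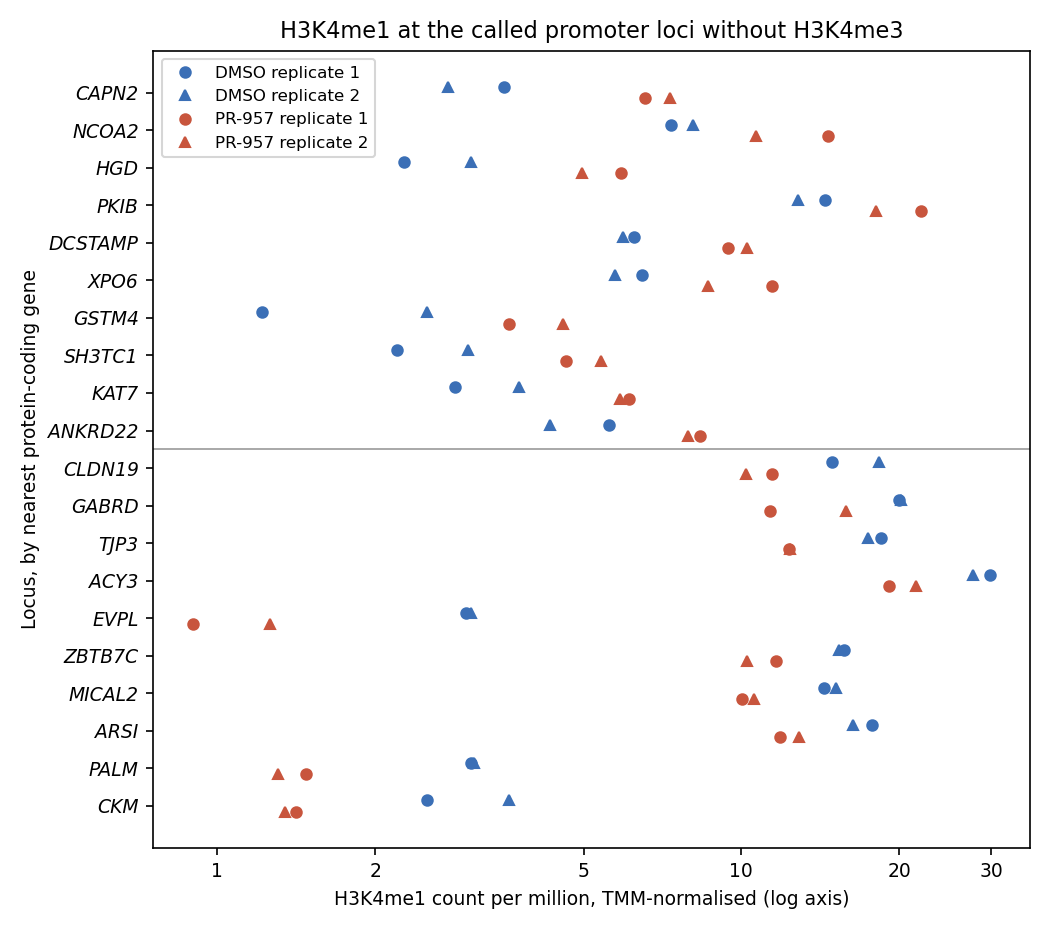
H3K4me1 level (CPM after TMM, log axis) in each DMSO (blue) and PR-957 (red) library at the 10 loci called higher with the smallest p-values, above the line, and at the 10 called lower, below it. Circles are replicate 1 and triangles replicate 2. In every row both red points lie on one side of both blue points.

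Of the 11 loci called lower, 8 lay at genes without H3K4me3, as did 809 of all 2306 loci. The 11 had a median GC content of 57.2%, against 41.6% for the 41 called higher and 47.4% for all, and 5 of the 11 overlapped H3K27me3, against 2 of the 41 and 244 of all 2306. ACY3 was the strongest, with 29.8 and 27.6 CPM in DMSO and 19.1 and 21.6 in PR-957 (chr11:67644778-67651321, log2 fold change -0.49 ± 0.12 SE, edgeR adjusted p = 0.00641). CLDN19, a claudin of tight junctions, had 14.9 and 18.3 CPM in DMSO and 11.4 and 10.2 in PR-957 (chr1:42734543-42739465, log2 fold change -0.62, edgeR adjusted p = 0.00147). Each PR-957 library lay below each DMSO library at both genes.

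TJP3, which encodes a partner of claudins, had 18.5 and 17.5 CPM in DMSO and 12.3 and 12.4 in PR-957 (chr19:3712288-3723312, log2 fold change -0.54, edgeR adjusted p = 0.00565). GABRD had 20.0 and 20.2 CPM in DMSO and 11.4 and 15.8 in PR-957 (chr1:2021394-2028566, log2 fold change -0.54, edgeR adjusted p = 0.00417), with -0.34 without PR-957 replicate 1 (edgeR adjusted p = 0.349) and -0.82 without PR-957 replicate 2. EVPL, a protein of the cornified envelope of keratinocytes, had 2.98 and 3.05 CPM in DMSO and 0.899 and 1.26 in PR-957 (chr17:76028301-76030183, log2 fold change -1.45 ± 0.34 SE, edgeR adjusted p = 0.00685), the largest decrease of the 11, in an interval before the gene. The treatments did not overlap at any of these genes.

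CKM, the creatine kinase of muscle, had 2.51 and 3.60 CPM in DMSO and 1.41 and 1.35 in PR-957 at its start (chr19:45321267-45324494, log2 fold change -1.14, edgeR adjusted p = 0.0359). PALM, a membrane-bound phosphoprotein of neurons, had 3.05 and 3.09 CPM in DMSO and 1.48 and 1.31 in PR-957 (chr19:706906-710760, log2 fold change -1.15, edgeR adjusted p = 0.031). Both loci overlap H3K27me3, and both PR-957 libraries lay below both DMSO libraries.

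ZBTB7C, MICAL2, ARSI and CPNE2 completed the 11, with log2 fold changes of -0.51, -0.51, -0.46 and -0.41 and edgeR adjusted p-values of 0.0145, 0.0167, 0.0283 and 0.0448. Of the 10 with the smallest p-values, GABRD, TJP3, ACY3, MICAL2, ARSI, PALM and CKM were no longer called with the GC trend removed (edgeR adjusted p from 0.0545 to 0.108), and CLDN19, EVPL and ZBTB7C were. Each of these 10, and each of the 10 called higher except CAPN2, lost its call when at least 1 of the libraries was left out. ZBTB7C is a transcription factor with zinc fingers, MICAL2 an actin-oxidising enzyme and ARSI an arylsulfatase. An H3K4me3 interval lies 35 bases from the ZBTB7C locus, so its place among the loci without H3K4me3 rests on the edge of an interval.

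H3K27ac at the loci changed at 1 gene. Of 725 loci with a tested H3K27ac interval, 1 was called in edgeR (0.138%), against 0.238% of all 74510 H3K27ac intervals. This was NRXN2, a presynaptic adhesion protein, with 2.12 and 2.02 CPM of H3K27ac in DMSO and 7.05 and 4.22 in PR-957 (chr11:64658491-64661519, log2 fold change 1.42 ± 0.33 SE, adjusted p = 0.0163). Its H3K4me1 did not pass (log2 fold change 0.12, adjusted p = 0.633). DESeq2 did not call it (adjusted p = 0.6 without independent filtering), and the call was lost when any of the 4 libraries was left out (adjusted p from 0.135 to 0.549). At 59 of the 725 the unadjusted p in edgeR was under 0.05, against 5966 of all 74510 intervals, and the median log2 fold change was 0.02. The loci are read here by the widest interval of the overlapping H3K27ac locus, whereas the values for all intervals count every one.

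H3K27me3 was called at 31 of the 240 loci with a tested interval, 7 higher and 24 lower (12.9% in all), against 5.92% of all 31806 H3K27me3 intervals. These intervals are broad domains, with a median width of 8144 bases, and the 240 loci lie in 231 of them. Each locus is read by the widest interval of its domain, whereas the 5.92% counts every interval. These shares are therefore not of like units, and no share over widest intervals alone was computed for H3K27me3. The balance of higher and lower calls differed between scalings. Scaled by total counts, 43 loci were higher and 11 lower, 18 of them called in the same direction as with TMM, and cyclic loess offsets gave 31 and 8, with 14 in the same direction. The TMM factors of the H3K27me3 libraries were 0.943 and 0.948 for DMSO and 1.04 and 1.08 for PR-957. The median log2 fold change of all H3K27me3 intervals was 0.0156 with TMM and 0.178 with total counts, and that of the loci was -0.0047 and 0.157.

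The 5 loci with the smallest p-values lie in Polycomb domains at developmental transcription factors. SIX3, a homeobox gene of the eye and forebrain, had 1272 and 1271 CPM of H3K27me3 in DMSO and 967 and 924 in PR-957 over its domain (chr2:44920238-44963970, log2 fold change -0.43 ± 0.04 SE, edgeR adjusted p = 5.16e-15), and its log2 fold change was -0.27 with total counts and -0.19 with cyclic loess offsets. PRDM13, a regulator of neural fate, had 449 and 446 CPM in DMSO and 350 and 343 in PR-957 (chr6:99587634-99625127, log2 fold change -0.37, edgeR adjusted p = 5.98e-10), with -0.21 and -0.19 under these scalings. Both were called under either scaling. In both domains the treatments did not overlap.

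HOXD3 had 5154 and 4950 CPM in DMSO and 4067 and 3708 in PR-957 over a domain of 136886 bases that covers other HOXD genes (chr2:176060059-176196945, log2 fold change -0.38, edgeR adjusted p = 3.14e-14). TLX1, a homeobox gene of spleen development, had 1997 and 1956 CPM in DMSO and 1664 and 1512 in PR-957 (chr10:101073859-101166128, log2 fold change -0.32, edgeR adjusted p = 1.07e-09). HOXC10 had 8163 and 7781 CPM in DMSO and 6667 and 6135 in PR-957 (chr12:53917109-54095191, log2 fold change -0.32, edgeR adjusted p = 2.3e-11), and its direction turned with cyclic loess offsets (log2 fold change 0.04, adjusted p = 0.192). With these offsets HOXD3 and TLX1 were no longer called (adjusted p = 0.131 and 0.341). With total counts the log2 fold changes of HOXD3, TLX1 and HOXC10 were -0.22, -0.155 and -0.16, and all 3 were called.

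The H3K4me1 loci inside these 5 domains did not pass in edgeR, with log2 fold changes of 0.32 at SIX3, 0.51 at PRDM13, -0.02 at HOXD3, -0.06 at TLX1 and -0.31 at HOXC10 and adjusted p-values of 0.487 or above. At the PALM start, where H3K4me1 was lower, the H3K27me3 interval had 39.0 and 39.9 CPM in DMSO and 50.4 and 47.1 in PR-957 (chr19:707382-715402, log2 fold change 0.30, edgeR adjusted p = 0.0383). PALM was the 1 locus called in both modifications.

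Named groups of genes were described by how many of their members had such a locus, beside 2002 of all 19676 protein-coding gene symbols (10.2%) and a median H3K4me1 log2 fold change of 0.06 over all 2306 loci, 405 of which had an unadjusted p under 0.05 in edgeR. Of these 2002 genes, 774 had no H3K4me3 at any coding TSS. The lists themselves differ in H3K4me3, which was at 12446 of all 19676 genes. It was at 45 of 91 myeloid surface receptors, 12 of 40 myeloid granule and secreted proteins and 20 of 54 cytokines and chemokines. Of lymphoid genes 12 of 57 had it, and of non-HOX developmental transcription factors 58 of 113. Of the lists given here by gene function, myeloid surface receptors had the highest share, with 28 of 91 genes (30.8%). Among these 28, 19 had no H3K4me3 at any coding TSS. Their 37 loci had a median of 0.10, with 0 called in edgeR and 7 at an unadjusted p under 0.05. FPR1, a receptor for formyl peptides, had its stronger locus at 28.0 and 24.5 CPM in DMSO and 30.2 and 27.4 in PR-957. CX3CR1, the fractalkine receptor of monocytes, had 10.1 and 11.6 CPM in DMSO and 7.19 and 8.52 in PR-957, without overlap and short of the threshold (log2 fold change -0.45, edgeR adjusted p = 0.0774).

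SIGLEC1, a sialic acid receptor of macrophages, had 15.6 and 17.2 CPM in DMSO and 13.6 and 12.96 in PR-957 (edgeR adjusted p = 0.189). MSR1, a scavenger receptor, had 1.76 and 1.71 CPM in DMSO and 2.50 and 3.22 in PR-957 (edgeR adjusted p = 0.203). CLEC12A, a C-type lectin, had 0.61 and 0.669 CPM in DMSO and 1.54 and 1.48 in PR-957 (edgeR adjusted p = 0.172). At each of these genes the treatments did not overlap, and no difference passed the test.

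Granule and secreted proteins of myeloid cells had loci at 8 of 40 genes (20%), all 8 without H3K4me3. CD177, a surface protein of neutrophils, was called higher, with 7.52 and 6.31 CPM in DMSO and 10.7 and 10.6 in PR-957 (log2 fold change 0.61, edgeR adjusted p = 0.0119). S100A12, a calcium-binding alarmin, had 1.46 and 1.88 CPM in DMSO and 3.15 and 2.78 in PR-957 (edgeR adjusted p = 0.143). CAMP, the cathelicidin peptide precursor, had 14.9 and 16.0 CPM in DMSO and 12.7 and 12.3 in PR-957 (edgeR adjusted p = 0.197). The median over the 9 loci was 0.02.

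Cytokines and chemokines had loci at 13 of 54 genes (24.1%), 11 of them without H3K4me3, with a median of -0.01. IL1A, which encodes interleukin 1 alpha, was called higher, with 3.96 and 3.01 CPM in DMSO and 6.03 and 6.17 in PR-957 (log2 fold change 0.80, edgeR adjusted p = 0.0147). The neighbouring IL1B had 19.4 and 19.1 CPM in DMSO and 18.9 and 19.0 in PR-957 (edgeR adjusted p = 0.955), and CCL2, a monocyte attractant, had 76.9 and 69.03 CPM in DMSO and 64.1 and 71.1 in PR-957 (edgeR adjusted p = 0.696). The 2 treatments overlapped at CCL2.

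Genes of other blood lineages also had such loci. Of 57 lymphoid genes 14 did (24.6%), 12 without H3K4me3, among them CD22, CD3D and LCK, and 0 of the 15 loci were called in edgeR or had an unadjusted p under 0.05 (median 0.01). The smallest p-values were those of CD6, PRF1, TNFRSF17 and IL7R, with edgeR adjusted p-values of 0.362, 0.375, 0.55 and 0.666. CD22, an inhibitory receptor of B cells, had its stronger locus at 29.6 and 26.8 CPM in DMSO and 29.6 and 27.6 in PR-957. Of 36 erythroid and megakaryocytic genes 6 did (16.7%), with a median of 0.04, 0 called in edgeR and 0 at an unadjusted p under 0.05. The log2 fold changes of RHCE, ITGA2B and TUBB1 were -0.32, 0.28 and 0.20, with edgeR adjusted p-values of 0.582, 0.7 and 0.867. The strongest per kb was HBD, the delta globin gene, at 2.44 and 2.72 CPM in DMSO and 2.05 and 3.22 in PR-957. RHCE and HBD have close copies in RHD and HBB, with which reads may be shared.

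Genes of the proteasome, of antigen presentation and of stress responses were read against the same 10.2% of all genes. Constitutive proteasome subunits had loci at 1 of 31 genes (3.23%), PSMD1, with 1.86 and 1.80 CPM in DMSO and 2.31 and 3.83 in PR-957 (edgeR adjusted p = 0.147). Immunoproteasome and MHC class I genes, the pathway that PR-957 targets, had 2 of 19 (10.5%), ERAP2 and NLRC5, whose 3 loci had adjusted p-values from 0.374 to 0.74. MHC class II genes had 1 of 16 (6.25%), CIITA (edgeR adjusted p = 0.703). An H3K4me3 interval was listed at 5 of the 19 immunoproteasome and MHC class I genes and at 3 of the 16 class II genes. It was listed at 29 of the 31 constitutive subunits and at 12446 of all 19676 genes. Whether intervals could be detected equally well at these genes was not tested, which limits the reading of their shares. Interferon response genes had 6 of 58 (10.3%), with 0 called in edgeR and 1 at an unadjusted p under 0.05. The smallest p-values among them were those of APOL3, EIF2AK2, IFITM3 and IFIT2, with adjusted p-values of 0.227, 0.485, 0.545 and 0.736. NFE2L2 antioxidant targets had 2 of 35 (5.71%), SLC48A1 (edgeR adjusted p = 0.724) and HMOX1, the heme oxygenase, which had 10.5 and 10.2 CPM in DMSO and 12.6 and 14.1 in PR-957, without overlap (log2 fold change 0.37, edgeR adjusted p = 0.112).

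Of the 21 KMT2A target genes named by the study, 19 carried H3K4me3. Among these was MEF2C, a transcription factor of myeloid leukemia and the 1 gene of the list with loci that overlap no H3K4me3 interval. The 3 MEF2C loci had log2 fold changes of 0.57, 0.44 and 0.12 and edgeR adjusted p-values of 0.174, 0.385 and 0.789. Non-HOX developmental transcription factors had 8 of 113 genes (7.08%), all 8 without H3K4me3, and 7 of their 9 loci overlapped H3K27me3, against 244 of all 2306. Of these 9 loci 0 were called for H3K4me1 in edgeR, and 2 had an unadjusted p under 0.05. LHX3 and DLX3, both homeobox genes, had log2 fold changes of -0.27 and -0.65 (edgeR adjusted p = 0.208 and 0.232). The strongest was PAX8, with 56.7 and 42.8 CPM in DMSO and 43.1 and 42.2 in PR-957 (edgeR adjusted p = 0.314).

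The libraries had total H3K4me1 counts of 15204186 to 30584219, the lowest in PR-957 replicate 1, and 9885836 to 44591150 over the other modifications. H3K4me3 was present at 7 of 8 myeloid marker genes (all of CD33, SPI1, CEBPA, LYZ, CSF1R, FLT3 and ITGAM, not MPO) and H3K27ac at all 8. Of 8 markers of other cell types, 3 had H3K4me3 (EPCAM, COL1A1 and PECAM1) and 1 had H3K27ac (PECAM1). The study names MACS2 or SEACR as peak callers without saying which of them gave each interval list, and absence of H3K4me3 means here that no interval was listed.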

How the data were processed

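Cut&Tag libraries were read from the deposited tables, 1 per library, which hold whole-number counts on intervals shared by the 4 libraries of a modification. The authors counted reads or fragments without normalization. Alignment was to hg38 with Bowtie2. The submitters' processing notes list Trimmomatic 0.39, Bowtie2 2.2.5, Picard 2.27.1, SAMtools 1.7, SEACR 1.3 and deepTools 3.5.1. The methods name MACS2 or SEACR for peaks. Which of them gave each list, the counter and the treatment of duplicates are not given in the sources used here. Coordinates of intervals are printed as listed. IgG libraries (2 samples) were not used here.

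The loci and gene lists were chosen with earlier results of these data known. Intervals were kept by filterByExpr (minimum count 10), scaled by TMM and tested in edgeR 4.0.16 (R 4.3.3) by its quasi-likelihood test on 4 libraries per modification, with Benjamini-Hochberg adjustment over all intervals at 0.05. The code was also run on counts simulated from edgeR's own means and dispersions, with an outcome not reported here. Such a run cannot show how the test behaves on these libraries. A locus is named by the protein-coding gene with the nearest TSS, and its H3K27ac or H3K27me3 value is the widest interval of the locus with the longest overlap. Named were the 10 loci called higher and the 10 lower with the smallest p and no overlap of the treatments, the 5 with the highest DMSO level per kb, up to 5 called for H3K27ac or H3K27me3, and in each gene list those called or otherwise up to 4 by p. FPR1, S100A12, CAMP, IL1B, CCL2, CD22, PALM for H3K27me3, CPNE2 and the CAPN2 and PKIB promoters with H3K4me3 were added after their values were seen. Depth was lowest in PR-957 replicate 1 for H3K4me1, and wider intervals hold more counts. Alternatives were other scalings (limma 3.58.1 for cyclic loess), DESeq2 1.42.0, filters, the replicate block, left-out libraries and other rules for loci. Sequences and tables were handled in Python 3.11.15. Some named genes and sequences are not reported here.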

Additional observations from a re-analysis of the deposited data

How the results depend on the processing

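With 2 libraries a treatment, precision is limited, and the counts of calls moved with the tool and the libraries. DESeq2, with or without independent filtering (the latter chosen after seeing the data), called 0 higher and 0 lower in H3K4me1 and 0 in H3K27ac, and without it 17 in H3K27me3. Removing the GC trend gave 19 higher, and 1 interval per locus gave 24 higher with a median log2 fold change of 0.00568. Leaving out 1 library gave 7 to 36 higher, 1 to 10 lower, a median of 0.0309 to 0.0906, 0 H3K27ac calls and 13 to 30 H3K27me3 calls. The median was 0.104 when scaled by library size only, 0.0188 under cyclic loess offsets and 0.0246 at a mean count of at least 50. Library size only gave 54 H3K27me3 calls. The cause was not tested. Other rules for loci changed how many there were: 4527 with a TSS window of 5 kb (70 higher, 20 lower), 847 with 1 canonical TSS per gene (13 higher, 5 lower, median 0.00755), 4176 with all transcripts of protein-coding genes (83 higher, 20 lower) and 1178 with 4 or more intervals (18 higher, median -0.0162, reversed). H3K27me3 at HOXC10 reversed with cyclic loess offsets (log2 fold change 0.0421). With the replicate number as a block, 40 loci were higher and 11 lower, 38 and 10 of them among the main calls, with a median of 0.0519, 1 H3K27ac call and 22 H3K27me3 calls. Deviations of libraries with the same number correlated at 0.00682 for H3K4me1, -0.00886 for H3K27ac, -0.00687 for H3K27me3 and 0.167 for H3K4me3, which was not compared. The numbers were not taken to pair the libraries.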

Other observations

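Families of genes taken by symbol differed in how often they had a promoter locus with H3K4me1 and no H3K4me3, beside 10.2% of all protein-coding genes. The C-type lectin, LILR, SIGLEC, CD300 and KIR families had one at 15 of 76 genes (19.7%), and adhesion and orphan G protein-coupled receptors at 18 of 100. Solute carriers (39 of 371, 10.5%) and ion channel subunits (23 of 231, 9.96%) were near the share of all genes. H3K27me3 overlapped 7 of the 23 ion channel loci and 8 of the 46 solute carrier loci, against 244 of all 2306. C2H2 zinc finger genes had 20 of 501 (3.99%), keratins 7 of 144 (4.86%), cytosolic ribosomal proteins 2 of 82, histone genes 2 of 91 and olfactory and taste receptors 7 of 408 (1.72%). These families differ in CpG content and in number of TSS, whose part was not tested.

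Loci made of 1 interval and loci made of many differed in their change. The 603 loci with 1 interval had a median H3K4me1 log2 fold change of 0.23, and the 1178 with 4 or more intervals had -0.02. Both PR-957 libraries lay above both DMSO libraries at 205 of the 603 and below them at 47, against 280 and 286 of the 1178. The loci with 1 interval were also weaker, with a median of 0.732 CPM per kb in DMSO against 1.699. Which libraries gave each interval is not stated, so whether such loci were listed through a library where they were high cannot be told. The part of this choice in the difference was not tested.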
